A study of Mus musculus with 12 samples.

Results

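The genes described here carry the MHC class I presentation pathway from the proteasome to the cell surface. They are Psmb8, Psmb9 and Psmb10 (catalytic subunits of the immunoproteasome), Psme1 and Psme2 (the PA28 activator), Tap1, Tap2 and Tapbp (peptide transport and loading), and B2m and H2-K1 (light and heavy chain of a class I molecule). They were chosen by symbol, as every probe whose platform annotation names 1 of these 10 genes, which gave 17 probes. Of these, 16 were above background on enough arrays to be kept, and all 10 genes were among the 12061 genes tested.

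Class I molecules show peptides from inside the cell to CD8 T cells. Most of the peptides are cut by the proteasome, whose core holds the catalytic subunits Psmb5, Psmb6 and Psmb7. In blood cells and under interferon these are replaced in newly built cores by Psmb8, Psmb9 and Psmb10, and PA28 can open the core's gate. Peptides then pass into the endoplasmic reticulum through the Tap1-Tap2 transporter, are loaded onto class I heavy chains with the help of tapasin (Tapbp), and leave for the surface with B2m. Nlrc5, a transactivator of class I genes, and the interferon-induced factor Irf1 act on many of these promoters, and leukaemia cells can escape T cells by losing parts of the pathway.

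RNA came from mouse leukaemia stem cells and was measured on 12 Illumina bead arrays. Terc is the gene of the RNA that telomerase copies into telomeres. The oncogene MLL-AF9, a fusion found in human acute myeloid leukaemia, was expressed together with green fluorescent protein. Marrow progenitors (lin-, kit+, sca1+), either G3 Terc-/- or WT, were made to express it and 10000 of them were given to C57BL/6J recipients of 6 to 8 weeks after 5.5 Gy. When a recipient fell ill, fluorescent cells of its marrow that were lin-, kit+ and Fcgr+ were sorted. The p-p53 group comprised 3 Terc-/- arrays labelled p-p53 (Ser15). The p-Foxo3a group comprised 2 Terc-/- arrays labelled p-Foxo3a (Ser253), and Terc-/- replicate 5 had no status. The WT group comprised 6 arrays of cells with intact Terc. All groups carried MLL-AF9 and came from irradiated recipients whose own marrow cells could persist beside the graft. Whether each sample is a different animal is not stated, and p-values here refer to the spread among the samples at hand, which may be technical.

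The arrays of Terc-/- replicates 2 and 6 were nearly identical, as were those of WT replicates 5 and 6, with correlations of at least 0.9958 against at most 0.9901 in other pairs. Each pair was averaged and counted once, which left 5 Terc-/- samples (2 p-p53, 2 p-Foxo3a, 1 without status) and 5 WT samples. Over the 16 kept probes of the 10 genes, the median absolute difference within a pair was 0.11 in Terc-/- and 0.17 in WT, and the largest was 0.45 and 0.43. Terc-/- replicate 1 stood apart over all probes, with a median correlation of 0.9722 to the other arrays (0.9673 to 0.9804) and 825 to 1602 kept probes differing from them by more than 2-fold. Pairs of other arrays had correlations of 0.9768 to 0.9963. Several results that rest on this array are given with and without it. Differences of single genes outside the 10 are given only with it. Each array had between 19515 and 19717 probes above the background limit of 6.56 log2 units. No probe of the annotation used here is named Terc, and the arrays therefore cannot show the deletion. Most markers of the sorted cells were present, since 10 of 12 listed genes, among them Kit and Cebpa, lay above the limit in every sample. Flt3 was not above background, and Fcgr3 has no probe here. The median difference of these 10 markers between the genotypes was -0.03, with 4 higher and 6 lower in Terc-/- (-0.36 to 0.39). Kit and Cebpa had the highest differences, 0.39 ± 0.16 and 0.39 ± 0.22 (SE).

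Promoter sequences of 9 of the 10 genes were found in RefSeq's table (build GRCm38.p6, 300 bases around the start site, most of them before it), in 11 windows, since Psme2 and H2-K1 have 2 each. Printed here are 4 of them, those of 2 class I genes whose levels moved together, of Psmb8, and of Psmb9, which faces Tap1 across a shared stretch. Searched on both strands were the core of the interferon response element (GAAANNGAA), the GAS element (TTCNNNGAA) and the NF-kB consensus, and matches are in capitals. The B2m window is chr2:122147437-122147736 (plus strand), that of H2-K1 chr17:34000298-34000597 (minus), that of Psmb8 chr17:34197945-34198244 (plus) and that of Psmb9 chr17:34187281-34187580 (minus).
B2m: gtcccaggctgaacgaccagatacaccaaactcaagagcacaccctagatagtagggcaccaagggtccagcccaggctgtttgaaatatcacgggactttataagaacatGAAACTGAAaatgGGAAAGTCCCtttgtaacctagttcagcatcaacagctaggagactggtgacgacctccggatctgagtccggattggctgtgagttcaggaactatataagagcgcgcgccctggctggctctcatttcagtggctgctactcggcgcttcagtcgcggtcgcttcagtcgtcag
H2-K1: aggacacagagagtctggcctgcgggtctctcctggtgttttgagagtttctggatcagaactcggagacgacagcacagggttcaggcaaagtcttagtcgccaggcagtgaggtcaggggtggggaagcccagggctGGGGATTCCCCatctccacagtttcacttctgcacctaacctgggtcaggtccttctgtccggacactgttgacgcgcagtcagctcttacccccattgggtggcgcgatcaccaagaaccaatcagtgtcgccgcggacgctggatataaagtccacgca
Psmb8: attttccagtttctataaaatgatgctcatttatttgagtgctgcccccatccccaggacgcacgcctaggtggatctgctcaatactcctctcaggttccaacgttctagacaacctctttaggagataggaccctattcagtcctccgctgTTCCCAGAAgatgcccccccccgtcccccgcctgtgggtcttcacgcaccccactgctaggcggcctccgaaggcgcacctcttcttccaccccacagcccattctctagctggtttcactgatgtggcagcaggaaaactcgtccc
Psmb9: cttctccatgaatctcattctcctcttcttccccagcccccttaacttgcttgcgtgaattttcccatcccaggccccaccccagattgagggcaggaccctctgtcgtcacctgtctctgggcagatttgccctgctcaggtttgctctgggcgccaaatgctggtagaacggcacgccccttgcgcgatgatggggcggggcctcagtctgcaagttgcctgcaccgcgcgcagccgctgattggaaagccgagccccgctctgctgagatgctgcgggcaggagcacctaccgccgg

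In B2m the capitals mark an interferon response element core that begins at position -139 from the start site and an NF-kB match at -126, which do not overlap. H2-K1 holds overlapping NF-kB matches at -111 and -110, and Psmb8 a GAS match at -97. The Psmb9 window has no match to any of the 3 motifs. Its start site lies 226 bases from that of Tap1, which is read in the opposite direction, and 275 bases are common to both windows. The interferon element was found in 2 of the 9 genes (B2m and Psme1) and in 8.56% of all 32851 promoters in the table, the GAS element in 1 of 9 (Psmb8) and in 8.3%, and NF-kB matches in 2 of 9 (B2m and H2-K1) and in 4.51%. A match is a description of the letters and not evidence of binding, and no match says only that these letters are not in this window.

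The first comparison set leukaemia stem cells without Terc against those with it. All 10 genes had higher means in Terc-/- samples, by 0.12 to 0.57 log2 units with a median of 0.43, while the median over all genes was -0.01. None passed an adjusted p of 0.05 in limma, nor did any other gene (0.0% of genes, smallest adjusted p 0.508, with 336 genes higher and 560 lower at an unadjusted p under 0.05). The exact permutation test could not decide this. Its smallest possible p is 0.00794, so after adjustment over all genes it calls a gene only if a large share reach that p. Groups were without overlap, as that p requires, for only 42 genes higher and 100 lower in Terc-/-. That it called no gene after adjustment therefore adds nothing to the limma result. Psmb8, Tap1, Tap2 and Tapbp, 4 of 10, were higher at an unadjusted p under 0.05, as were 2.79% of all genes. The groups of none of the 10 genes were without overlap, against 0.348% of genes that lay higher in every Terc-/- sample. In RNA from sorted cells in bulk, a change in the share of cells of a kind and a change in RNA per cell cannot be told apart.

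That count of 4 was 2 (Psmb8 and Tap2) without Terc-/- replicate 1, without Terc-/- replicate 5, without WT replicate 4 or without the averaged WT replicates 5 and 6, and also in the exact permutation test. All 10 means remained higher in Terc-/- whichever sample was left out, but without Terc-/- replicate 1, the array that stood apart, their median difference was 0.26.

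**Figure D1:**
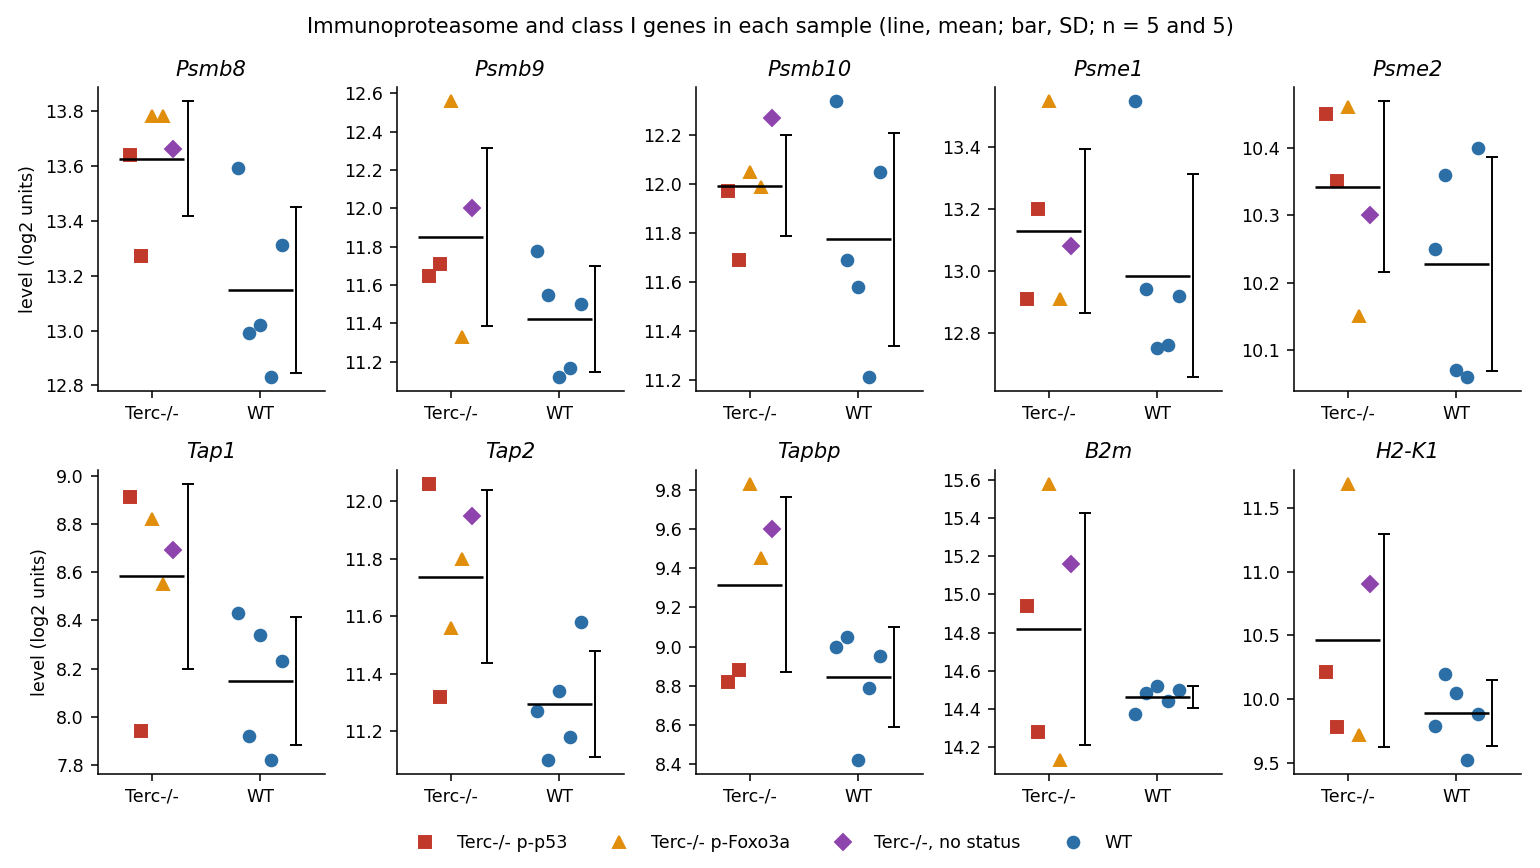
Level of each of the 10 genes (log2 units, 1 panel a gene) in the 5 Terc-/- samples on the left and the 5 WT samples on the right, with the mean as a line and the SD as a bar. B2m ranges from 14.13 to 15.58 in Terc-/- and from 14.37 to 14.52 in WT, while 4 of 5 Terc-/- samples exceed every WT sample for Psmb8 and Tap1. For Psmb8 this holds on the brightest probe, shown here, and not on its second probe.

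Psmb8, the immunoproteasome subunit with chymotrypsin-like activity, is given first, with Terc-/- values in the order of replicates 1, the averaged 2 and 6, 3, 4 and 5, and WT values in the order of 1, 2, 3, 4 and the averaged 5 and 6. Its level was 13.78, 13.64, 13.27, 13.78 and 13.66 in the Terc-/- samples, against 13.59, 12.99, 13.02, 12.83 and 13.31 in WT. On this probe, the brightest of the gene, 4 of 5 Terc-/- samples lay above every WT sample. Terc-/- replicate 3 lay below WT replicates 1 and 5-6. The means were 13.63 ± 0.21 in Terc-/- and 13.15 ± 0.30 in WT (SD, n = 5 each). The difference was 0.48 ± 0.15 (SE), or 1.395-fold (limma p = 0.0101, adjusted p = 0.637, two-sided exact permutation p = 0.0238, where the smallest possible p is 0.00794). Its second probe also had a higher mean in Terc-/-, by 0.30 ± 0.18 (SE, adjusted p = 0.717 in limma over all kept probes). On that probe no Terc-/- sample (9.41 to 9.87) exceeded WT replicate 1, at 10.01.

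Psmb9, which takes the place of Psmb6, reached 12.56, 11.65, 11.71, 11.33 and 12 in Terc-/-, against 11.78, 11.55, 11.12, 11.17 and 11.50 in WT. Only Terc-/- replicates 1 and 5 exceeded the highest WT sample, and replicate 4 lay below 3 WT samples. Means were 11.85 ± 0.46 in Terc-/- and 11.42 ± 0.27 in WT (SD, n = 5 each), a difference of 0.43 ± 0.22 (SE) that was 0.25 without Terc-/- replicate 1. Its limma p was 0.0746 and its exact permutation p 0.103. Psmb10, the trypsin-like subunit that replaces Psmb7, overlapped throughout, at 11.69 to 12.27 in Terc-/- and 11.21 to 12.34 in WT. Its difference was 0.22 ± 0.20 (SE), with 0.08 without WT replicate 4.

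The constitutive subunits that these 3 replace had lower means in Terc-/-, and none passed the test. Psmb5 averaged 10.64 ± 0.13 in Terc-/- and 10.71 ± 0.25 in WT, Psmb6 12.78 ± 0.08 in Terc-/- and 12.86 ± 0.10 in WT, and Psmb7 13.08 ± 0.13 in Terc-/- and 13.17 ± 0.08 in WT (SD, n = 5 each). Their differences were -0.07 ± 0.12, -0.08 ± 0.07 and -0.09 ± 0.08 (SE). The rest of the core particle and its assembly factors showed the same small size, with 1 of 12 tested genes higher and 11 lower (median -0.06). In the 19S regulatory particle, which unfolds substrates, 6 of 19 were higher and 13 lower (median -0.08), with Psmc5 at -0.28 ± 0.11 (SE, adjusted p = 0.661) and Psmd1 at 0.26 ± 0.12 (adjusted p = 0.678 in limma). Both counts rest in part on Terc-/- replicate 1. Without it, 5 of the 12 core and assembly genes were higher, with a median of -0.01. In the 19S particle 8 of 19 were then higher, with a median of -0.03.

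Within each sample, the immunoproteasome subunit minus its partner was set against the WT mean of that quantity, in 3 pairs and with a test that was added after the values had been seen. For Psmb8 minus Psmb5 it was 0.59, 0.67, 0.03, 0.78 and 0.69 in Terc-/-, against 0.45, -0.56, 0.16, -0.25 and 0.19 in WT. With the brightest Psmb8 probe, again 4 of 5 Terc-/- samples lay above all WT samples, and replicate 3 stood among them. The means differed by 0.55 (exact permutation p = 0.0397). This p was between 0.0159 and 0.0794 with 1 sample left out, and was above 0.05 in 8 of 10 such omissions. For Psmb9 minus Psmb6 the means differed by 0.51 (exact permutation p = 0.0873) and for Psmb10 minus Psmb7 by 0.31 (p = 0.262, the same exact test). With 1 sample left out, the exact permutation p of Psmb9 minus Psmb6 was between 0.0476 and 0.19. It was 0.0476 when Terc-/- replicate 4 or WT replicate 1 was omitted, and above 0.05 in every other omission. Without Terc-/- replicate 1 the means of this pair differed by 0.32 (exact permutation p = 0.175).

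Psme1 and Psme2, which form the ring-shaped PA28 activator, showed the smallest differences of the 10 genes. Psme1 lay at 13.55, 12.91, 13.20, 12.91 and 13.08 in Terc-/-, against 13.55, 12.94, 12.75, 12.76 and 12.92 in WT. The highest sample of each genotype had the same value, and the difference of 0.14 ± 0.17 (SE) was 0.04 with Terc-/- replicate 1 omitted and 0.29 with WT replicate 1 omitted. Psme2 ranged from 10.15 to 10.46 in Terc-/- and from 10.06 to 10.40 in WT, with a difference of 0.12 ± 0.09 (SE). Of the other activators, Psme4 (PA200) had a mean 0.21 ± 0.09 higher (SE, adjusted p = 0.663 in limma), and Psme3 (PA28 gamma) differed by -0.03 ± 0.10.

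The transporter subunits and tapasin differed by about as much as Psmb8. Tap1 stood at 8.82, 8.91, 7.94, 8.55 and 8.69 in Terc-/-, against 8.43, 7.92, 8.34, 7.82 and 8.23 in WT. As with Psmb8, 4 Terc-/- samples exceeded all WT samples and replicate 3 did not, since only WT replicates 2 and 4 were below it. Means were 8.58 ± 0.39 in Terc-/- and 8.15 ± 0.27 in WT (SD, n = 5 each), and the difference was 0.44 ± 0.19 (SE, limma p = 0.0444, adjusted p = 0.670, exact permutation p = 0.0794).

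Tap2, the other half-transporter, had 11.56, 12.06, 11.32, 11.80 and 11.95 in Terc-/-, against 11.27, 11.10, 11.34, 11.18 and 11.58 in WT. Here replicates 2 and 6 were highest and Terc-/- replicate 1, highest for most other genes, was below the top WT sample. The difference was 0.44 ± 0.15 (SE, limma p = 0.0126, adjusted p = 0.637, exact permutation p = 0.0397), with means of 11.74 ± 0.30 in Terc-/- and 11.29 ± 0.18 in WT (SD, n = 5 each). Tapbp, the chaperone that holds empty class I molecules at the transporter, was 9.83, 8.82, 8.88, 9.45 and 9.6 in Terc-/-, against 9, 9.05, 8.42, 8.79 and 8.95 in WT. It was high in Terc-/- replicates 1, 4 and 5 and within the WT range in the p-p53 samples. Its difference was 0.47 ± 0.21 (SE, limma p = 0.0442, adjusted p = 0.670, exact permutation p = 0.103).

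Other genes of peptide trimming and loading divided evenly, with 4 of 8 tested higher, 4 lower and a median of -0.01. The cytosolic peptidase Tpp2 had a lower mean in Terc-/- (-0.28 ± 0.09, SE, adjusted p = 0.637 in limma), and the translocon subunit Sec61a1 a higher one (0.28 ± 0.14). The tapasin relative Tapbpl (0.20 ± 0.30), the loading chaperone calreticulin (Calr, 0.14 ± 0.20), the oxidoreductase Pdia3 (-0.14 ± 0.17) and the trimming peptidase Erap1 (0.03 ± 0.10) differed by about their error or less. In this list the 8 tested genes are part of 12, of which 3 were not above background and 1 has no probe.

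**Figure D2:**
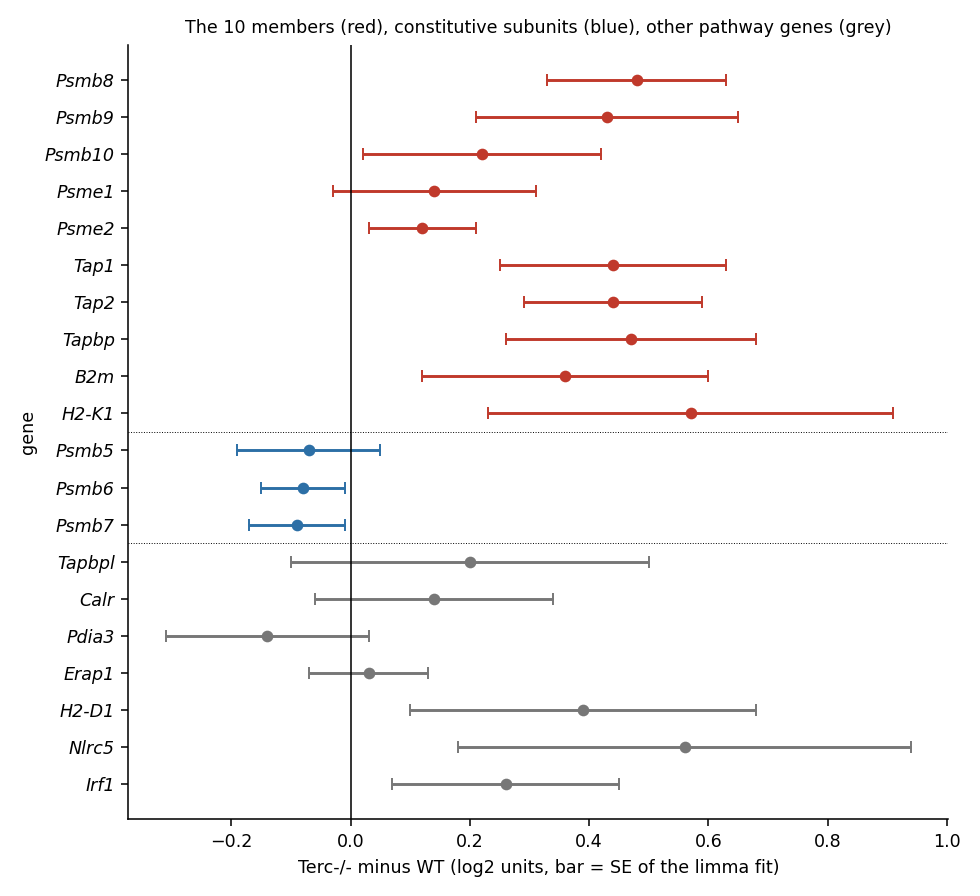
Difference between the Terc-/- and WT means (log2 units, with the SE of the limma fit) for the 10 genes in red, the constitutive catalytic subunits in blue and other genes of the pathway in grey. The red points lie between 0.12 and 0.57 and the blue points between -0.09 and -0.07.

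B2m, the light chain of all classical class I molecules, had the largest contrast in spread. It was 15.58, 14.94, 14.28, 14.13 and 15.16 in Terc-/-, against 14.37, 14.48, 14.52, 14.44 and 14.50 in WT. Thus 3 Terc-/- samples lay above all WT samples and the other 2 below them. The SD was 0.606 in Terc-/- and 0.061 in WT, a ratio of 10, where the median ratio over all genes was 1.11 and 0.0746% of genes had a higher one. The ratio was 8.25 without Terc-/- replicate 1. The means of 14.82 in Terc-/- and 14.46 in WT differed by 0.36 ± 0.24 (SE, exact permutation p = 0.222), and by 0.17 without Terc-/- replicate 1. Its second kept probe gave 0.38 ± 0.22, and the third lay between 6.13 and 6.41 on all arrays, below the background limit.

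H2-K1, the heavy chain of the class I molecule H2-K, followed B2m, at 11.69, 10.21, 9.78, 9.72 and 10.90 in Terc-/-, against 9.79, 10.20, 10.05, 9.52 and 9.88 in WT. Terc-/- replicates 1 and 5 stood clear of the WT samples, the averaged 2 and 6 were level with the top WT sample, and 3 and 4 lay within the WT range. Means were 10.46 ± 0.83 in Terc-/- and 9.89 ± 0.26 in WT (SD, n = 5 each), a difference of 0.57 ± 0.34 (SE, exact permutation p = 0.222) that was 0.27 without Terc-/- replicate 1. The 2 other H2-K1 probes gave 0.41 ± 0.29 and 0.47 ± 0.33. Class I heavy chain genes are closely related in sequence, and whether these probes read H2-K1 alone was not tested.

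Most of the further heavy chains, though not all, had higher means in Terc-/-. Of 12 tested class I and class I-like heavy chains, 8 had a difference above 0 and 4 below (median 0.38, or 0.22 without Terc-/- replicate 1), and none had an unadjusted p under 0.05. H2-D1, the second classical heavy chain of this strain, was 14.84, 14.15, 13.26, 13.23 and 14.29 in Terc-/-, against 13.72, 13.46, 13.85, 13.26 and 13.51 in WT (0.39 ± 0.29, SE). The nonclassical H2-Q7 (0.82 ± 0.38) and H2-T23, the mouse Qa-1 molecule (0.71 ± 0.33), had higher means (adjusted p = 0.679 and adjusted p = 0.678 in limma). In Terc-/- replicate 1 the median of the 12 chains was 1.39 above the WT means, with 7 of the 12 above them, and in replicates 5 and the averaged 2 and 6 it was 0.59 and 0.44. In replicates 3 and 4 it was -0.28 and -0.18, and WT samples lay between -0.33 and 0.24. The chains below their WT means in replicate 1 were H2-Q1 (6.81 against 6.86), Mr1 (6.62 against 6.68) and 3 with larger gaps, all named after their values were seen. Hfe, a class I-like iron regulator, was 6.84 there against a WT mean of 9.08 and had the lowest difference of the list, -0.96. The lipid-presenting Cd1d1 was 9.20 against 9.69, and the antibody receptor chain Fcgrt 6.97 against 7.79.

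Among regulators, Nlrc5 was 8.52, 7.77, 6.48, 6.69 and 7.78 in Terc-/-, against 6.84, 6.70, 7.63, 6.44 and 6.82 in WT. Terc-/- replicate 3 and WT replicate 4 were below the background limit, and WT replicate 3 was close to the middle Terc-/- samples. The difference was 0.56 ± 0.38 (SE, adjusted p = 0.739 in limma). Irf1 differed by 0.26 ± 0.19, the interferon-gamma receptor chain Ifngr1 by 0.32 ± 0.17 and its partner Ifngr2 by -0.37 ± 0.17. Socs3, a feedback inhibitor of cytokine signalling, was the only 1 of 23 tested regulators at an unadjusted p under 0.05 (0.45 ± 0.18, SE, adjusted p = 0.661 in limma). Over all 12061 genes, 336 (2.79%) were higher and 560 lower at that level. Socs3 lay near background, above the limit in 4 of 5 Terc-/- samples and in 1 of 5 WT samples, so the size of its difference is uncertain. In all, 14 of the 23 were higher and 9 lower (median 0.11). Without Terc-/- replicate 1, in which Nlrc5 was highest, 13 were higher and the median was 0.01. Ciita and Ifng were not above background.

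Interferon-stimulated effector genes outside the class I pathway had higher means in Terc-/- for 26 of 27 tested genes, with a median of 0.22. Without Terc-/- replicate 1, 23 of 27 were higher, with a median of 0.18. Of the 27 genes, 16 lay above the background limit in every sample. At an unadjusted p under 0.05, 4 of the 27 were higher, as were 2.79% of all genes. Largest was Lgals3bp, a secreted glycoprotein (1.87 ± 0.53, SE), followed in p by the antiviral protein Oasl2 (0.69 ± 0.23). Oasl2 lay below the background limit in WT replicates 2 and 4, at 6.46 and 6.37, so the size of its difference is uncertain. By sample the list's median above the WT means was 0.53 in the averaged Terc-/- replicates 2 and 6, 0.40 in replicate 5, 0.30 in replicate 1, 0.03 in replicate 3 and -0.02 in replicate 4, while the WT samples lay between -0.16 and 0.16. Replicates 1, 5 and the averaged 2 and 6 were the highest Terc-/- samples here, as for B2m and H2-K1. Only the order among them differed, since replicate 1 was highest for B2m and H2-K1. Of ligands read by T, NK and phagocytic cells, the "don't eat me" protein Cd47 had a higher mean in Terc-/- (0.37 ± 0.14, SE, adjusted p = 0.661 in limma), and Cd274 (PD-L1) differed by 0.42 ± 0.26.

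**Figure D3:**
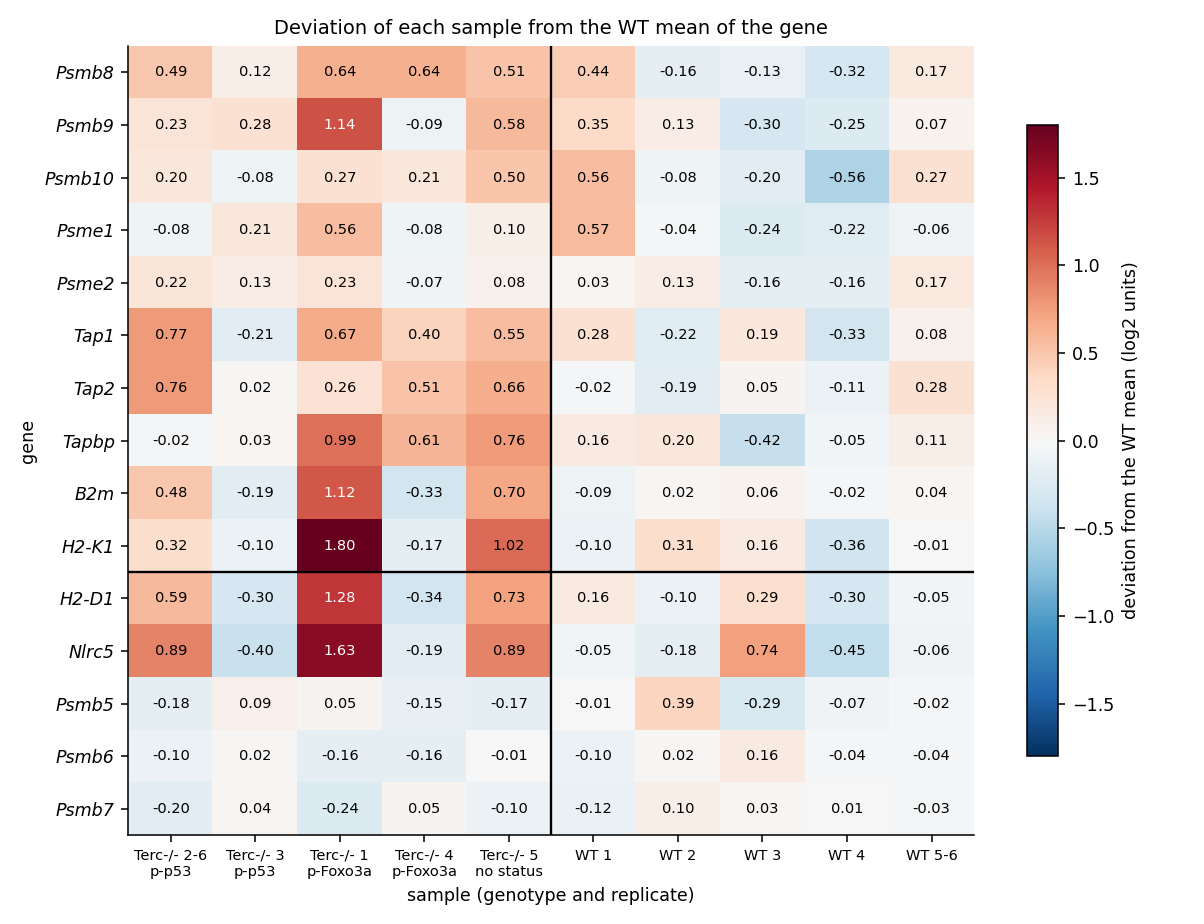
Deviation of each sample from the WT mean of the gene (log2 units, colour and number) for the 10 genes above the line, and for H2-D1, Nlrc5 and the 3 constitutive subunits below it, with Terc-/- samples on the left and WT samples on the right. Terc-/- replicates 1 and 5 are above the WT mean for all 10 genes, and WT replicate 4 is below it for all 10.

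Samples were ordered by the median deviation of the 10 genes from their WT means, as a description. Terc-/- samples stood at 0.65 (replicate 1), 0.56 (5), 0.27 (2 and 6), 0.07 (4) and 0.03 (3). WT samples stood at 0.22 (replicate 1), 0.10 (5 and 6), -0.01 (2), -0.15 (3) and -0.24 (4). Terc-/- replicates 1 and 5 were therefore highest, while replicates 3 and 4 lay below WT replicate 1. Replicate 1 was among the 3 highest samples for 9 of 10 genes and replicate 5 for 8, and WT replicate 4 was among the 3 lowest for 9. Over all genes these medians lay between -0.046 and 0.017 in every sample.

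The 10 genes did not vary as 1 block. Among 55 relations over 10 samples (all pairs of the 10 genes and Nlrc5 with each), B2m and H2-K1 had the highest correlation (Pearson r = 0.937, permutation p = 0.00033, Benjamini-Hochberg 0.0113; Spearman rho = 0.891, permutation p = 0.00126). The r was 0.923 after the mean of each genotype had been removed. Without Terc-/- replicates 1 and 5, the 2 samples farthest from the median of B2m, it was 0.660 (exact permutation p = 0.0683), so the relation rests in part on those samples. Nlrc5 was related to B2m with r = 0.905 (permutation p = 0.00041, Benjamini-Hochberg 0.0113) and rho = 0.855 (permutation p = 0.00294), and without the same 2 samples with r = 0.750 (exact permutation p = 0.0333).

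Psmb8 went with Tap1 (r = 0.852, permutation p = 0.00289; rho = 0.869, permutation p = 0.00177; Benjamini-Hochberg 0.0253 for r), although r was 0.714 without WT replicates 2 and 4 (exact permutation p = 0.0550). Psmb9 and Tap1, which share the stretch between their start sites, had r = 0.539 (permutation p = 0.102, Benjamini-Hochberg 0.200) and rho = 0.515 (permutation p = 0.133), and r = 0.467 without the 2 farthest samples. The lowest r was that of Psme1 and Tap2, -0.060 (permutation p = 0.867), with rho = -0.139 (permutation p = 0.705). Samples of a relation share the array on which both genes were read, and 5 samples in a genotype are too few to give r within it.

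**Figure D4:**
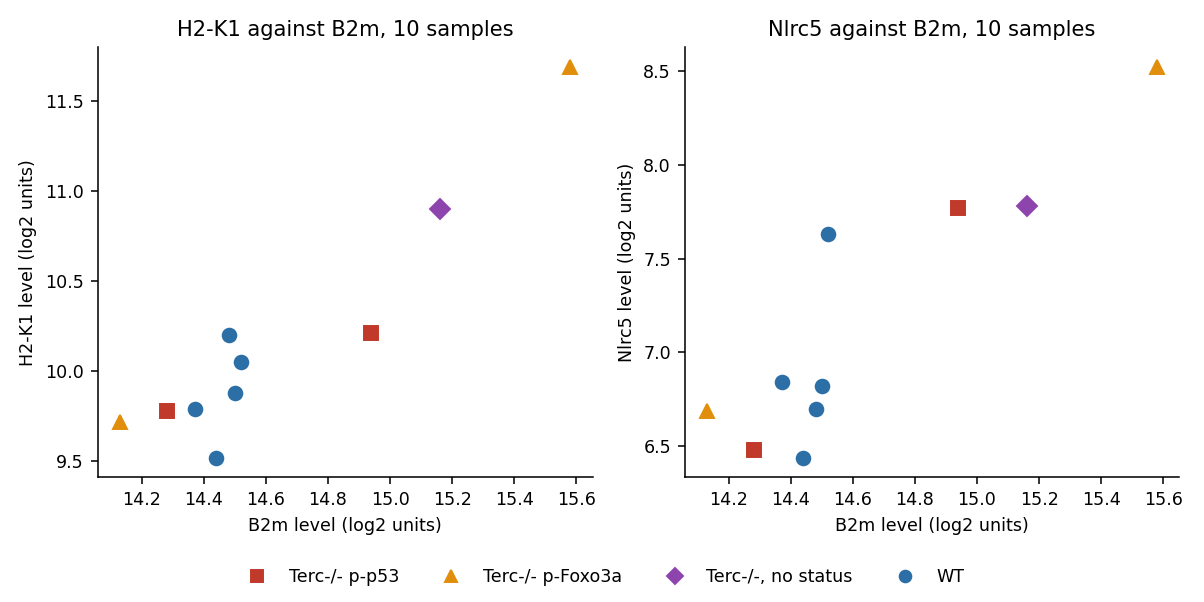
Levels of H2-K1 (left) and Nlrc5 (right) against B2m (all in log2 units), 1 point a sample, with colours and shapes for p-p53, p-Foxo3a and unlabelled Terc-/- samples and for WT. The 5 WT samples lie between 14.37 and 14.52 in B2m, while 3 Terc-/- samples extend to the right of them and 2 to the left.

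By the measure of likeness used here, the Pearson correlation over 10 samples with the mean deviation of the 10 genes, the most alike genes were Pmm2 (0.973), Insl3 (0.967), H2-Q7 (0.956), Ifitm1 (0.954) and H2-T23 (0.944). Themis2 (0.940), Defb29 (0.939), Edem2 (0.937), Trim30a (0.934) and Pcp4l1 (0.931) followed. H2-Q7 and H2-T23 belong to the class I heavy chains listed above, and Trim30a differed by 0.61 between Terc-/- and WT. Without Terc-/- replicate 1 these 10 correlations lay between 0.871 and 0.953. They are given without a test, since they are the highest of all genes tested.

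On chromosome 17 lie 6 of the 10 genes, Psmb8, Psmb9, Tap1, Tap2, Tapbp and H2-K1, in the gene table of GRCm38.p6. Beside each of the 10 genes, the 20 tested genes on either side were measured, leaving out the others of the 10. In Terc-/- replicate 1 their median deviation from WT means was -0.05 around Psmb8, Psmb9, Tap1, Tap2 and H2-K1 and -0.06 around Tapbp, while these 6 genes were 0.26 to 1.80 above the WT means. Around B2m on chromosome 2 it was -0.12, against 1.12 for B2m itself. In the comparison of Terc-/- with WT, each of the 6 genes had a larger difference than all 40 of its neighbours, B2m than all but 1, Psmb10 than all but 3, Psme1 than all but 7 and Psme2 than all but 8. Psmb8, Psmb9, Tap1 and Tap2 have the same 40 neighbours, and the stretches of Tapbp and H2-K1 overlap theirs. The stretches of Psme1 and Psme2 also overlap, so these are not separate comparisons.

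Markers of other cells were measured beside these genes. Mature neutrophil markers had lower means in Terc-/- for all 11 tested of 12 (median -0.65, or -0.93 without Terc-/- replicate 1). Camp was at -1.82 ± 0.65 and Olfm4 at -1.64 ± 0.57 (SE, adjusted p = 0.653 and adjusted p = 0.637 in limma). The average level of that list ranged from 9.71 to 11.83 in Terc-/- and from 10.84 to 11.85 in WT samples, and Mmp8 was not above background. The list's median deviation from the WT means was lowest in the averaged Terc-/- replicates 2 and 6 (-1.65) and highest among Terc-/- samples in replicate 3 (0.42), in which most of the 10 genes were near their WT means. The part of this difference in the results above was not tested.

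Class II and dendritic cell markers were higher for 4 and lower for 5 of the 9 tested of 14, with the smallest p for Cd74 and H2-Eb1, which had lower means in Terc-/-. Cd74 was above the background limit in 1 of 5 Terc-/- samples and 4 of 5 WT samples, and H2-Eb1 in 2 of 5 Terc-/- and 5 of 5 WT samples, so their differences (-0.69 and -0.30) are measured against values at background. Their average ranged from 7.77 to 8.46 in Terc-/- and from 7.84 to 8.70 in WT, and Ciita, Itgax, Zbtb46, Xcr1 and Siglech were not above background. Of 15 T and NK markers 7 were tested (5 higher, 2 lower, average 7.83 to 8.58 in Terc-/- and 7.93 to 8.41 in WT), and Cd3e, Cd3g, Cd8a, Ncr1 and Prf1 were not above background. Cd8b1, which had the smallest p of the list, was bright in every sample, at 12.59 to 13.23 in Terc-/- and 12.23 to 12.89 in WT (0.26 ± 0.17, SE). Klrb1c followed, at 6.35 to 6.64 in Terc-/- and 6.39 to 6.84 in WT, near the background limit. Nkg7, named after its values were seen, was also bright, at 9.56 to 14.14 in Terc-/- and 11.35 to 12.86 in WT. Of 8 B cell markers 3 were tested (1 higher, 2 lower), and Cd22, Blk and Pax5 were not above background. Cd79b lay well above it in every sample, at 10.66 to 11.35 in Terc-/- and 10.17 to 11.26 in WT (0.16 ± 0.20, SE), and Ebf1 differed by -0.03 ± 0.07. Of 12 monocyte and macrophage markers 8 were tested (2 higher, 6 lower, average 8.00 to 8.97 in Terc-/- and 8.45 to 9.09 in WT). Their median was -0.18, or -0.06 without Terc-/- replicate 1. Those of smallest p, C1qb (-0.12 ± 0.10) and C1qa (-0.10 ± 0.09), lay near the background limit. Of 10 erythroid markers 6 were tested (3 higher, 3 lower), with Car1 at -0.12 ± 0.07 and Hbb-bt at -0.16 ± 0.36 (SE). The part of these cell types in the results above was not tested.

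By label the Terc-/- samples fall into p-p53 and p-Foxo3a kinds, and both were compared with the same 5 WT samples and with each other in 1 fit without replicate 5. In the p-p53 samples (replicate 3, and 2 and 6 averaged) all 10 genes had higher means than in WT, by 0.01 to 0.39 (median 0.16). None had an unadjusted p under 0.05, where 1.26% of genes were higher at that level (152 higher and 164 lower), and no gene passed the adjusted threshold (0.0% in limma). Tap2 was highest, with 11.69 ± 0.52 in p-p53 (SD, n = 2) and 0.39 ± 0.21 (SE) above WT, and Psmb8 followed with 0.31 ± 0.21. The 2 samples disagreed, since Tap1 was 0.77 above the WT mean in the averaged replicates 2 and 6 and below it in replicate 3, at -0.21. Without the averaged replicates 2 and 6, 6 of 10 means were higher than in WT, and Tap1 (-0.21), B2m (-0.19), H2-K1 (-0.10) and Psmb10 (-0.08) were lower. Without replicate 3, Tap1 was 0.77 and Tap2 0.76 above WT.

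In the p-Foxo3a samples (replicates 1 and 4) all 10 genes also had higher means than in WT, by 0.08 to 0.82 (median 0.46). Psmb8 and Tapbp, 2 of 10, were higher at an unadjusted p under 0.05, as were 4.24% of genes (511 higher and 660 lower), and none passed the adjusted threshold (0.0% in limma, smallest adjusted p 0.37). Tapbp was 9.83 in replicate 1 and 9.45 in replicate 4, against 8.42 to 9.05 in WT, so that both lay above all WT samples. This held for 3 of the 10 genes (Psmb8, Tap1 and Tapbp) and for 5.07% of all genes. Its difference was 0.80 ± 0.18 (SE, adjusted p = 0.431 in limma). Psmb8 was 13.78 in both, against 12.83 to 13.59 in WT, a difference of 0.64 ± 0.21 (SE, adjusted p = 0.464 in limma). On the second Psmb8 probe both p-Foxo3a samples, at 9.87 and 9.82, lay below WT replicate 1, at 10.01.

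For the class I chains the 2 p-Foxo3a samples lay on opposite sides of WT. H2-K1 was 1.80 above the WT mean in replicate 1 and below it in replicate 4, at -0.17, and B2m was 1.12 above and -0.33. Without replicate 1, 5 of 10 means were higher than in WT and Psmb9 (-0.09), Psme1 (-0.08), Psme2 (-0.07), B2m (-0.33) and H2-K1 (-0.17) were lower. Without replicate 4, H2-K1 was 1.80 and B2m 1.12 above WT. Each of these fits leaves 1 sample of the group, which is assumed to vary like the others.

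Set against each other, p-p53 samples had lower means than p-Foxo3a samples for 8 of the 10 genes (median -0.26 as p-p53 minus p-Foxo3a). Tapbp was 8.82 and 8.88 in p-p53, against 9.83 and 9.45 in p-Foxo3a, a difference of -0.79 ± 0.22 (SE, adjusted p = 0.944 in limma). It alone of the 10 was lower at an unadjusted p under 0.05, as were 2.54% of genes (313 higher and 306 lower), and no gene passed the adjusted threshold (0.0%). Both p-p53 samples lay below both p-Foxo3a samples for 3 of the 10 genes (Psmb8, Psmb10 and Tapbp) and for 14.1% of all genes. Psme2 (0.09 ± 0.16) and Tap2 (0.01 ± 0.25) had the 2 higher means, that of Tap2 being 0 after quantile normalization. Without Terc-/- replicate 1, 5 of 10 were higher in p-p53, among them B2m (0.47) and H2-K1 (0.28). Tapbp kept its direction under all alternatives, between -0.98 and -0.60. Since both kinds were set against the same WT samples, their 2 differences from WT are not independent.

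**Figure D5:**
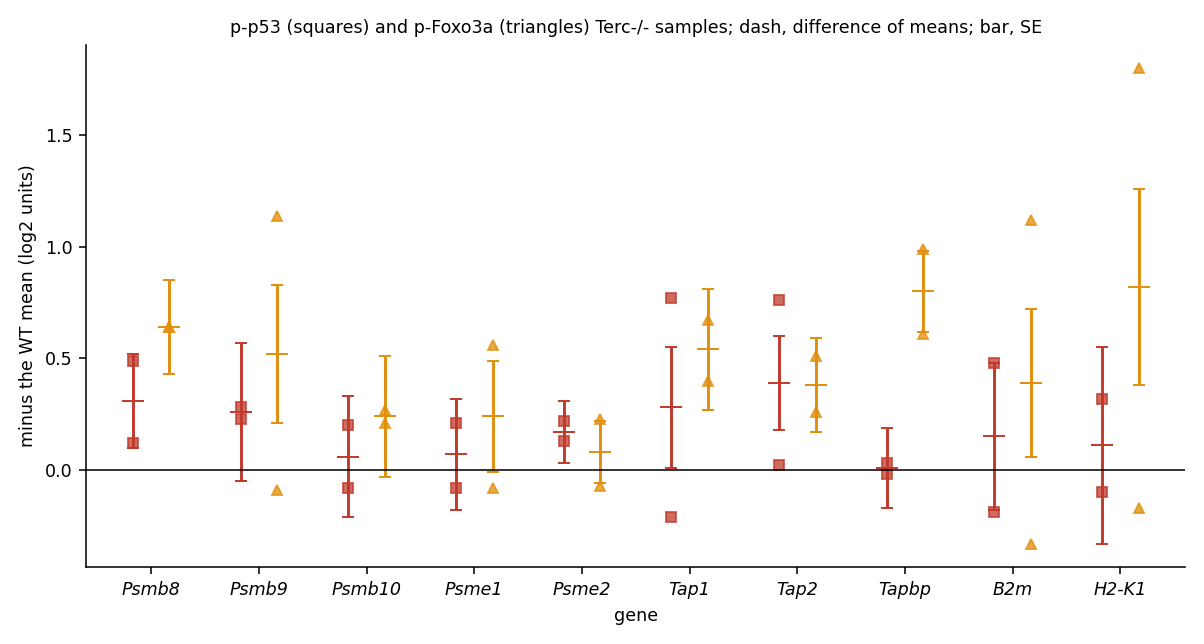
For each of the 10 genes, the p-p53 samples (squares, red) and the p-Foxo3a samples (triangles, orange) minus the WT mean (log2 units), with the difference of means as a dash and its SE as a bar. Both p-p53 samples of Tapbp lie below both p-Foxo3a samples, as for 14.1% of all genes, while the 2 p-Foxo3a samples of B2m and H2-K1 fall on either side of 0.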

How the data were processed

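Total RNA was hybridised as biotin-labelled cRNA to Illumina bead arrays, and the array software was GenomeStudio, per the submitters' processing notes. The deposited values are log2 intensities whose sorted values differ by at most 0.095 between arrays, as normalization between arrays gives (array medians 6.571 to 6.578). No source used here gives the settings or a genome build. A second table was not used, since its 24 columns match no sample label.

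The mode of all values was 6.345 and its lower side gave an SD of 0.132, so that 5% of background lies above the limit of 6.561. Probes above it on at least 3 of 12 arrays were kept (22292 of 38502), and the brightest kept probe stood for each of 12061 genes. Of all probes, the annotation gave 1 gene to 32034, several to 16 and did not list 6452; 31976 matched the gene table by Entrez identifier. Near-identical arrays were averaged. The tests were those of limma 3.58.1 in R 4.3.3 (lmFit, then eBayes), with Benjamini-Hochberg adjustment over all genes, two-sided, and with exact permutation over 252 arrangements. Correlations used 100000 permutations.

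Genes named are the 10 members, 13 pathway genes fixed by name, in other lists the 2 of smallest p, and the 10 most like the members. Hfe, Cd1d1, Fcgrt, H2-Q1, Mr1, Nkg7 and the markers listed as not above background were chosen after their values were seen. Values of gene lists without Terc-/- replicate 1 were added after seeing the data. The members and lists were chosen with earlier results of these data known. The fit was tested on simulated data. Alternatives were other normalizations, background corrections, filters, probe rules, a trend in eBayes, all arrays as separate samples, a replicate block and the omission of each sample. Same-numbered arrays deviated together with correlations of -0.217 to 0.147, and 1 of 6 numbers correlated best with its own, so numbers were not taken as pairs. The number of arrays limits the precision.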

Additional observations from a re-analysis of the deposited data

Results flagged for a closer look

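Of the 20 groups of 5 samples checked (10 genes in each genotype), 2 hold a sample whose distance to the nearest other exceeds 0.71 of the group's range, Dixon's limit for 5 samples. Chance gives about 1 in 20. Psmb8 was 13.27 in Terc-/- replicate 3, with the other Terc-/- samples at 13.64 to 13.78 (gap share 0.727). Psme1 was 13.55 in WT replicate 1, with the other WT samples at 12.75 to 12.94 (gap share 0.756). The source of these values was not tested.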

How the results depend on the processing

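For single genes the threshold was an adjusted p of 0.05, and for subunit pairs an unadjusted exact permutation p of 0.05. Over the alternatives, 892 values of single genes and subunit pairs kept direction and side of their threshold, and 27 turned direction. In the pair Psmb8 minus Psmb5, 8 values no longer passed. The 3 that newly passed were H2-K1 in p-Foxo3a, in a fit with 1 sample left in that group, and Psmb9 minus Psmb6 in 2 omissions. In Terc-/- against WT no member turned. The exact permutation test gave 2 members at an unadjusted p under 0.05 in place of 4. With a smallest possible p of 0.00794 it could not pass single genes at the adjusted threshold here. Its values for single genes therefore show direction only. With 1 sample left out, genes past the threshold were 0 to 1, members at an unadjusted p under 0.05 2 to 5, and members past it 0. With the replicate number as a block over all 12 arrays, no gene passed and 4 members were at an unadjusted p under 0.05, with differences of 0.46 for Psmb8, 0.45 for Tap2, 0.48 for Tap1 and 0.38 for Psmb9, and the block changed no call at the adjusted threshold. In p-p53 against WT, all 12 arrays as separate samples gave 1 gene, 1 member at an unadjusted p under 0.05 and Tapbp at -0.02. Omissions gave 0 to 15 genes, 0 to 2 members at that p, 6 to 10 higher means, and values of -0.10 to 0.06 for Tapbp, -0.08 to 0.20 for Psmb10, -0.08 to 0.21 for Psme1, -0.21 to 0.77 for Tap1, -0.19 to 0.48 for B2m and -0.10 to 0.32 for H2-K1. In p-Foxo3a against WT they gave 0 to 258 genes, 0 to 1 members past the threshold, 1 to 4 at an unadjusted p under 0.05, 5 to 10 higher means, and -0.09 to 1.14 for Psmb9, -0.08 to 0.56 for Psme1, -0.07 to 0.23 for Psme2, -0.33 to 1.12 for B2m and -0.17 to 1.80 for H2-K1. In p-p53 against p-Foxo3a, quantile normalization gave 1 higher mean and 0 for Tap2. Omissions gave 0 to 29 genes, 1 to 5 higher means, and -0.88 to 0.34 for Psmb9, -0.49 to 0.14 for Psme1, -0.06 to 0.24 for Psme2, -0.75 to 0.23 for Tap1, -0.36 to 0.38 for Tap2, -0.97 to 0.47 for B2m and -1.69 to 0.28 for H2-K1. The causes were not tested. Counts of members at an unadjusted p under these alternatives are given without the share of all genes, so they cannot be set against background. Groups of 2 samples, levels near background (Nlrc5) and unknown array settings limit these values.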
